A study of Mus musculus with 15 samples.

Results

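The untreated baseline of mouse microglia derived from embryonic stem cells is described here from 6 arrays, which are all the arrays labelled with no treatment among the 15 of the series. The cells came from a C57BL/6 embryonic stem cell line, were grown in a serum-free N2 medium based on DMEM/F12, and carried no named genetic change. The study compared them with the same cells after 24 h of interleukin-4 (100 U/ml), lipopolysaccharide with interferon-γ (500 and 20 ng/ml) or transforming growth factor-β (50 ng/ml), with 3 arrays for each stimulus. Those 9 treated arrays serve below only to show whether a probe can give signal. The series text speaks of triplicates, but 6 untreated arrays were present, and the labels do not say that they came from separate cultures, so the spread between them may be technical. As a model the cells are a stem cell product from 1 genetic background, kept in a dish without the other cells of the brain.

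Microglia are the resident macrophages of the brain. They arise from early yolk sac progenitors, depend on signalling through the CSF1 receptor and, in the brain, take on a specific identity under the influence of TGF-β. Macrophages in general are recognised by receptors that take up or sense particles, by signalling adaptors such as TYROBP, and by a large lysosomal system. Microglia in the healthy brain add surface proteins such as P2RY12 and TMEM119, which are often lost when the cells are taken into culture.

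RNA was hybridised to Illumina bead arrays that carry 45281 probes, of which 34885 named exactly 1 gene, giving 19057 genes. Each gene was represented by its brightest probe. Other probes of a gene counted as above background may not have passed, and this is stated below for some genes only. A gene was counted as above background where the deposited detection p was under 0.01 on all 6 arrays, and as not above background where no probe of the gene passed on any of them. Levels are given on a background-corrected log2 scale, and ranks as percentiles of the uncorrected signal among all 19057 genes, where 100 is the brightest. Probes differ in how strongly they hybridise, so a percentile places a probe's signal and does not measure transcript number.

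By this rule 7723 genes (40.5%) were above background on all 6 arrays, 10439 (54.8%) on 0 of 6, and 895 (4.7%) lay between. These shares are the background against which every list below is read. The genes above background on all 6 had a median percentile of 79.7. By the median over the 6 arrays, the lowest percentile of any of them was 58.2. The highest such median of a gene on 0 of 6 was 56.7, so the dimmest detected genes sit directly beside the brightest undetected ones.

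The 6 arrays were alike in depth of signal, with 13908 to 14789 probes above background and median raw signals of 130.3 to 153.9. Replicates 2 and 6 stood apart from the others in a limited set of genes. On replicate 2, 13 genes lay at least 2-fold below the median of the other arrays. On replicate 6 there were 31 such genes, and on each of the remaining arrays there were 0. No gene lay 2-fold above that median on any array. With those arrays left out together, an alternative chosen after seeing the data, 7805 genes were above background on the 4 remaining arrays and 10599 on 0 of them. Of the 39 gene lists examined, 3 then gained a single member above background and 6 gained up to 2 members on none, so the list counts below rest little on these arrays.

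The 4 defining macrophage markers were above background on all 6 arrays. Tyrobp, the adaptor that carries the signal of TREM2 and other receptors, had log2 levels of 12.17, 12.49 and 12.59 as its lowest, median and highest values (12.45 ± 0.14, SD, n = 6), at percentile 97.6. Adgre1, which encodes the macrophage surface protein F4/80, had raw signals of 3169, 4794 and 5640 and a mean log2 level of 12.11 ± 0.08, at percentile 96.6, and all 3 of its probes were above background on every array. Csf1r, the receptor for the survival factors CSF1 and IL-34, had 10.54, 10.71 and 10.77 (10.67 ± 0.10), at percentile 89.9. Their lowest and highest arrays differed by less than 0.5 on the log2 scale, and for Tyrobp the lowest value belongs to replicate 1.

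Aif1, which encodes the actin-binding protein IBA1 used to stain microglia, was the dim exception among the 4. Its log2 level was 6.89, 7.07 and 7.16 at the lowest, median and highest array (7.06 ± 0.10, n = 6), its raw signal ran from 213 to 296, and its percentile was 64.9. The second of its 3 probes was also above background on all 6 arrays, with raw signals of 204 to 265, while the remaining one was on 0 of 6. On the treated arrays the first probe reached 992, so it can give a stronger signal than it did here.

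**Figure D1:**
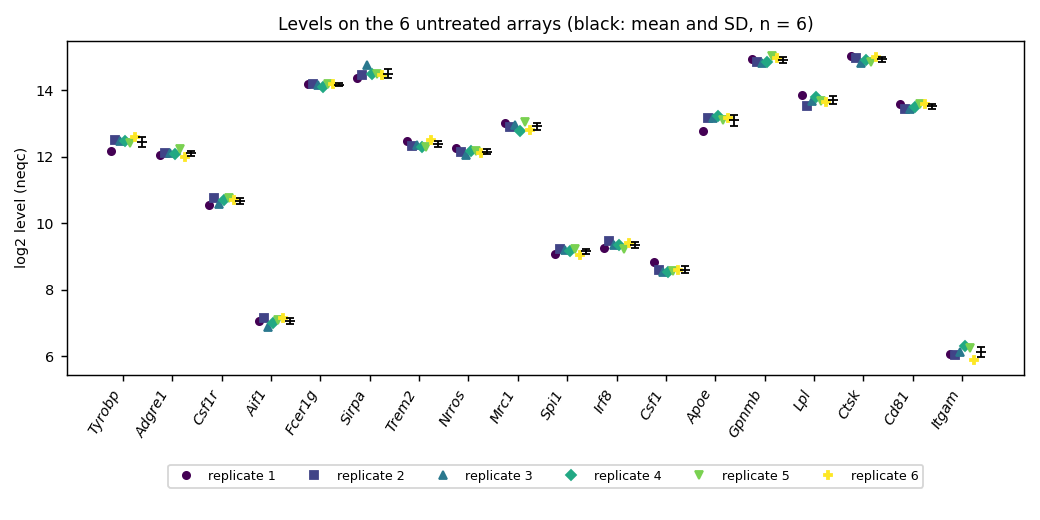
Background-corrected log2 level (vertical axis) of 18 genes on each of the 6 untreated arrays, with one symbol per replicate and the mean and SD (n = 6) in black beside them. Arrays of a gene lie close together, from Aif1 and Itgam near the bottom (means 7.06 and 6.12) to Gpnmb and Ctsk near the top (14.92 and 14.94).

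The brightest genes of the baseline were mostly those of protein synthesis and energy supply, with a few macrophage genes among them. The 20 highest ran from Rps2, a ribosomal protein gene (15.10 ± 0.06), to Rpl35 (14.82 ± 0.06). They included Eef1a1 and Eef1g, which encode elongation factors, the mitochondrially encoded CYTB and ND4, the ATP synthase genes Atp5b and Atp5g3, and the ribosomal protein genes Rps12, Rps29, Rplp1, Rpl41, Rpl37 and Rpl38. Tuba1b (tubulin), Ybx1 (an RNA-binding protein), Ppia (cyclophilin A) and Mif (a macrophage migration inhibitory cytokine) completed the common genes. The other 2 are known for high expression in phagocytes or osteoclasts: Ctsk, the collagen-degrading protease cathepsin K, and Gpnmb, a transmembrane glycoprotein of lipid-laden macrophages.

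In the brightest 1% (191 genes), 36 of the 63 cytosolic ribosomal protein genes on the array were found, beside 6 of 23 lysosomal, 7 of 23 disease-associated microglia and 4 of 30 macrophage surface genes. Lists can share members, and Ctsb and Cd63 count in both the lysosomal and the disease-associated group, so these counts are not of separate genes. The ribosomal genes also show what an undetected probe can and cannot say. Although every cell makes them, Rpl14, Rpl17, Rpl6, Rps20, Rps23 and Rpsa were above background on 0 of 6 arrays, at percentiles from 15.4 to 51.3. These genes were chosen after their values were seen. A gene given below as not above background is therefore a statement about its probes, not evidence that the transcript was missing.

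Genes for macrophage surface and effector proteins were bright as a group. Of 30 on the array, 27 (90.0%) were above background on all 6 arrays, with a median percentile over the list of 89.8. Lgals3, the galactoside-binding lectin galectin-3, had log2 levels of 14.63, 14.72 and 14.95 (14.76 ± 0.12, n = 6). Sirpa, the receptor for the CD47 signal that restrains phagocytosis, had 14.37, 14.48 and 14.77 (14.51 ± 0.13). Fcer1g, the signalling chain shared by activating Fc receptors, had 14.11, 14.19 and 14.21 (14.18 ± 0.04). All 3 lay within the brightest 0.5% of genes, and the 6 arrays of each fell within 0.5 log2 units.

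The lysosomal membrane protein gene Laptm5 had a mean of 14.39 ± 0.05, the NADPH oxidase subunit gene Cyba 13.17 ± 0.07, the lysozyme gene Lyz2 12.79 ± 0.15 and the lipopolysaccharide co-receptor gene Cd14 10.97 ± 0.06. The 3 exceptions were Cybb, the catalytic partner of the CYBA protein, the scavenger receptor gene Msr1 and the inhibitory receptor gene Cd200r1. Cybb was above background on 3 of the 9 treated arrays, and Msr1 and Cd200r1 on 0 of 9. Itgam, the integrin chain CD11b by which microglia are often sorted, passed on all 6 arrays but at percentile 59.4, barely above the undetected genes (6.12 ± 0.15). It was chosen after its value was seen.

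Of the lineage transcription factors, 20 of 29 (69.0%) were above background on all 6 arrays, 4 on some and 5 on none, with a median percentile of 72.8. Lmo2, a hematopoietic adaptor protein of transcription complexes, was the brightest (13.93, 14.10 and 14.24, mean 14.10 ± 0.10). Cebpb, a regulator of macrophage gene expression, followed with 13.42, 13.45 and 13.51 (13.46 ± 0.04), and Bhlhe40 averaged 12.30 ± 0.10. Spi1, which encodes the master regulator PU.1, had 9.06, 9.20 and 9.23 (9.16 ± 0.08, percentile 79.2). Its partner Irf8 had 9.22, 9.36 and 9.46 (9.35 ± 0.09, percentile 80.2). Spi1 and Irf8 were chosen after their values were seen, and both were steady across the 6 arrays.

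Irf5, which drives inflammatory cytokine genes, averaged 10.30 ± 0.13. Other factors varied more. Zeb2, a zinc finger repressor that helps to keep macrophage identity, had a mean of 10.28 ± 0.35, with 10.01 and 9.70 on replicates 2 and 6 and 10.43 to 10.54 on the others. Klf6 had a mean of 10.92 ± 0.33 and was lowest on replicate 6 (10.32). Cebpa was above background on 4 of 6 arrays, Mitf and Batf3 on 2 each and Gfi1 on 1. Maf, Tfec, Bhlhe41, Myb and Pparg were on 0 of 6. Myb is needed by bone marrow hematopoiesis but not by yolk sac macrophages, and Pparg marks alveolar macrophages.

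The microglial signature list was split. Of its 38 genes on the array, 13 (34.2%) were above background on all 6 arrays, 2 on some and 23 on none. Among all genes, 40.5% were above background on all 6 and 54.8% on none, so the list lay near these shares. The median percentile of the list was 43.0, against 89.8 for the macrophage surface list. Among the 13, Cd81, a tetraspanin, had log2 levels of 13.43, 13.53 and 13.60 (13.52 ± 0.08). Cst3, the secreted protease inhibitor cystatin C, had 13.40, 13.50 and 13.59 (13.49 ± 0.07). Trem2, the lipid-sensing receptor that signals through TYROBP, had 12.30, 12.33 and 12.50 (12.38 ± 0.09). These 3 are genes that many macrophages share with microglia.

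Nrros, whose product presents latent TGF-β1 on microglia, had 12.05, 12.16 and 12.27 (12.16 ± 0.07). Tgfbr1, the type I receptor for TGF-β, averaged 10.89 ± 0.14 and Bin1, a membrane-bending protein, 10.92 ± 0.06. Sall3, a zinc finger factor, averaged 8.72 ± 0.14. Its relative Sall1, which in the mouse brain marks microglia among macrophages, stood just above background at percentile 60.3 (5.88, 6.23 and 6.64, mean 6.26 ± 0.33), and its other probe was on 0 of 6 arrays. Both Sall genes were chosen after their values were seen. P2ry6, a nucleotide receptor linked to phagocytosis, averaged 6.88 ± 0.12.

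Genes often used to tell microglia from other macrophages were on the undetected side. The ADP receptor gene P2ry12 (percentile 42.0), its relative P2ry13 (29.6), the lectin gene Siglech (35.7), the receptor gene Gpr34 (43.9) and the Fc receptor-like gene Fcrls (22.1) were above background on 0 of 6 untreated and 0 of 9 treated arrays. For these genes the series holds no array that shows their probes can give signal.

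Of the 23 undetected signature genes, 5 were above background on at least 3 of the 9 treated arrays, against 1.4% of all genes undetected at baseline. Ltc4s and Gal3st4, named after their values were seen, were above on 1 each. Tmem119, a microglial membrane protein gene, had raw signals of 136 to 166 on the untreated arrays (percentile 49.5) and was above background on 3 of 9 treated arrays. The fractalkine receptor gene Cx3cr1 (126 to 158, percentile 33.2) and the extracellular matrix gene Olfml3 (123 to 144, percentile 11.0) were likewise above on 3 of 9. Of the complement genes in this list, C1qb was above on 3 of 9 treated arrays, C1qc on 6 of 9 and C1qa on 0 of 9.

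**Figure D2:**
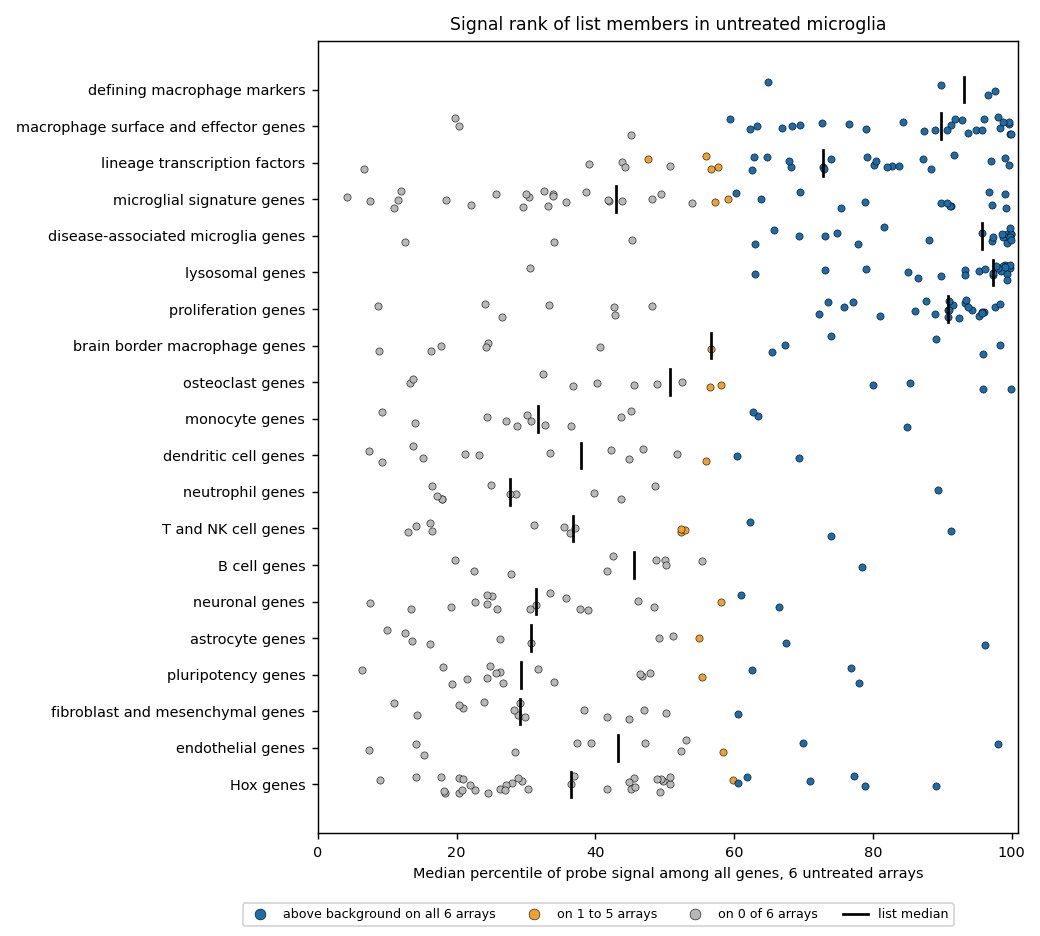
Median percentile of probe signal over the 6 untreated arrays (horizontal axis, 0 to 100 among 19057 genes) for each member of 20 gene lists, with blue for genes above background on all 6 arrays, orange for 1 to 5 arrays, grey for 0 of 6, and a black bar for the list's median. Macrophage surface, disease-associated and lysosomal genes gather at the right (medians 89.8, 95.7 and 97.3), while microglial signature genes are spread along the axis (median 43.0).

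Genes that mark other macrophages and myeloid cells were detected unevenly. Of 92 genes in 7 such lists (monocyte, border and peripheral macrophage, osteoclast, dendritic cell, neutrophil, mast cell and basophil), 19 (20.7%) were above background on all 6 arrays and 68 on none, a smaller share than the 40.5% of all genes. The brain border macrophage list, for cells of the meninges and perivascular spaces, had 6 of 13. Mrc1, the mannose receptor CD206, had log2 levels of 12.79, 12.93 and 13.06 (12.92 ± 0.11). The scavenger receptor gene Stab1 averaged 11.90 ± 0.08 and the chemokine gene Pf4 10.60 ± 0.18. Clec10a, Ms4a7 and Cbr2 were dimmer (percentiles 73.9, 67.3 and 65.4). For Ms4a7 just 1 of 4 probes passed, and for Stab1 1 of 3. Lyve1, Cd163, Folr2 and Cd36, which also belong to this list, were on 0 of 15 arrays.

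Among osteoclast genes, 4 of 14 were above background on all 6 arrays. Ctsk led them with 14.83, 14.95 and 15.04 (14.94 ± 0.08), followed by the proton pump gene Tcirg1 (11.89 ± 0.08), the chloride transporter gene Clcn7 (percentile 85.3) and the transcription factor gene Nfatc1 (9.32 ± 0.10). The osteoclast genes Mmp9 and Tnfrsf11a, which encodes the receptor RANK, were above background on 3 of 6 untreated arrays each, and Oscar was on 0 untreated and 3 treated arrays. Acp5, Ocstamp, Dcstamp, Calcr and Atp6v0d2 were on 0 of 15 arrays. TCIRG1 and CLCN7 also serve the lysosome of other cells.

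Monocyte genes were detected in 3 of 14 cases: the haptoglobin gene Hp (9.97 ± 0.08, all 3 probes), S100a8 (6.85 ± 0.12) and Ace (6.70 ± 0.18). Ccr2, the receptor by which monocytes leave the bone marrow, F13a1, S100a9, Plac8 and Chil3 were on 0 of 15, while Ly6c1 was on 0 untreated and 3 treated arrays. Of peripheral tissue macrophage genes, 3 of 15 passed, namely the heme oxygenase gene Hmox1 (10.96 ± 0.13), the iron exporter gene Slc40a1 (10.60 ± 0.07) and Icam2 (6.33 ± 0.07). Dendritic cell genes passed in 2 of 14 cases, Itgax (7.73 ± 0.17) and Irf4 (6.30 ± 0.14). Neutrophil genes passed in 1 of 11, which was Cebpe, a factor of granulocyte maturation, at 10.58 ± 0.14 and with all 4 of its probes above background. The neutrophil granule genes Mpo, Elane, Ltf, Camp and Ngp were on 0 of 15.

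Of 15 colony-stimulating factor and receptor genes, 5 (33.3%) were above background on all 6 arrays, a smaller share than the 40.5% of all genes. Beside Csf1r, Csf2ra, the binding chain of the receptor for granulocyte-macrophage factor, averaged 9.34 ± 0.07, the common β chain gene Csf2rb 8.10 ± 0.27 and Csf2rb2, which encodes the β chain specific to interleukin-3, 10.14 ± 0.10. Csf2rb and Csf2rb2 are close copies in the mouse, so their signals cannot be told apart with certainty. Csf1, the ligand of Csf1r, had log2 levels of 8.53, 8.58 and 8.83 (8.61 ± 0.11, percentile 74.8). The second ligand Il34, the granulocyte-macrophage factor Csf2, Csf3, Il3, the receptor genes Csf3r and Il3ra, and the stem cell receptor genes Kit and Flt3 were on 0 of 15 arrays.

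Genes for receptors of the stimuli used in the study and for their signalling were mostly detected before any stimulus. Of 19 such genes, 15 (78.9%) were above background on all 6 arrays. The 19 include adaptor, kinase and transcription factor genes, such as Myd88, Jak1 and Stat6. The share is therefore not one of receptors alone. For lipopolysaccharide, Tlr4 averaged 9.92 ± 0.10, Cd14 10.97 ± 0.06 and the adaptor Myd88 11.51 ± 0.05. For TGF-β, Tgfbr2 averaged 10.96 ± 0.07, close to the 10.89 ± 0.14 of Tgfbr1, although levels of different probes cannot be set against each other as transcript amounts. Each of these genes passed by 1 of its 4 probes. For interleukin-4, Il13ra1 averaged 9.65 ± 0.07, but Il4ra, the chain that binds the cytokine, was on 0 of 15 arrays at percentile 22.4. The co-receptor gene Tgfbr3 and the type I receptor gene Acvrl1 were on 0 of 15 as well. Eng, another co-receptor gene, was above background on 5 of 6.

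Of 10 genes for TGF-β ligands and their activation, 4 (40.0%) were above background on all 6 arrays, near the 40.5% of all genes. Tgfb1 itself had 9.64 on replicate 1, its lowest array, and 9.91 as its median (9.88 ± 0.12). Furin, the protease that cleaves its precursor, averaged 11.43 ± 0.06, and the integrin chain Itgav 7.80 ± 0.14, beside Nrros above. Tgfb2, Tgfb3, Ltbp3 and the integrin chains Itgb6 and Itgb8 were on 0 of 15 arrays, and Ltbp1 was on 0 untreated and 2 treated ones.

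Genes of the disease-associated state, first described in microglia around amyloid plaques, were the second brightest of the larger lists. Of 23 on the array, 20 (87.0%) were above background on all 6 arrays, with a median percentile of 95.7. Gpnmb had log2 levels of 14.84, 14.91 and 15.03 (14.92 ± 0.08), with all 4 probes above background. The ferritin heavy chain gene Fth1 averaged 14.82 ± 0.09 and the MHC class I light chain gene B2m 14.46 ± 0.08. Lpl, which frees fatty acids from lipoproteins, had 13.53, 13.68 and 13.86 (13.70 ± 0.12). Apoe, the lipid carrier, had 12.79 on replicate 1 and 13.11 to 13.22 on the other arrays (13.10 ± 0.16). Of the list, the TAM receptor gene Axl, the chemokine gene Ccl6 and the sterol hydroxylase gene Ch25h were on 0 of 15. Some other members were dimmer, with Cst7 at percentile 81.6, Fabp5 at 77.8 and Clec7a at 65.7, chosen after their values were seen. The list shares members such as Ctsb and Cd63 with the lysosomal list, so the high medians of both lists are not independent.

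Lysosomal genes had the highest median percentile of the lists with over 20 members, 97.3, and 22 of 23 (95.7%) were above background on all 6 arrays. The saposin precursor gene Psap averaged 14.61 ± 0.11, the protease gene Ctsb 14.43 ± 0.08, the membrane protein genes Cd63 13.77 ± 0.05, Lamp1 13.62 ± 0.04 and Lamp2 13.47 ± 0.10, and the progranulin gene Grn 13.38 ± 0.06. The exception was Ctsh, on 0 of 15 arrays.

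Many lysosomal genes carry E-box-like sites for the factors TFEB and TFE3 near their start. Promoter sequences from RefSeq (GRCm38.p6, 250 bases before to 50 after the start) were at hand for 19 of the 23 genes. The motif TCACGTG, searched on both strands, was present in 5 of the 19 (26.3%), which were Ctsa, Ctsd, Glb1, Lamp1 and Lgmn. It was present in 7.8% of the 6393 genes above background on all 6 arrays that have a promoter entry, in 4.3% of all 27025 genes in the table, and in 0 of 21 macrophage surface genes. The stretches before the start that hold it are shown for the 3 genes with over 1 match, with the matched letters in capitals, because they hold the most matches. The run TCACGTGA holds the motif on both strands.
Lamp1, chr8:13159082-13159160, + strand: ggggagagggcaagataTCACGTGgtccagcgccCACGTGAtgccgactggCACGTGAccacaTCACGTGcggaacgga
Ctsd, chr7:142387902-142387943, − strand: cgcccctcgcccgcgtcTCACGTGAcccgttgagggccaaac
Ctsa, chr2:164833743-164833772, + strand: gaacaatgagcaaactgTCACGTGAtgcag

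The window of Lamp1 held 4 matches, and Ctsa and Ctsd each had an overlapping pair, with a further match in Ctsd farther upstream. In all, 6 motifs were searched in both lists, and TCACGTG was chosen for display after its matches were seen. The others were 3 forms of PU.1 sites and 2 longer forms of the displayed motif. The form GAGGAAGT was in 3 of 21 macrophage surface genes (14.3%), in 3 of 19 lysosomal genes (15.8%) and in 3.7% of all genes. The form AGGAAGT was in 28.6%, 15.8% and 10.7% of the same sets. The form GAGGAA was in 52.4%, 52.6% and 31.3% of them. The form TCACGTGA was in 2 of 19 lysosomal genes (10.5%), and a palindrome with 1 more base on each side was in 0 of 19. A match describes letters in a window and does not show that a factor binds there.

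Lipid genes were largely detected, with 12 of 17 above background on all 6 arrays. Sqle, an enzyme of cholesterol synthesis, averaged 12.05 ± 0.04, the fatty acid desaturase gene Scd2 11.56 ± 0.10 and the lipid droplet gene Plin2 11.27 ± 0.16. Insig1, which restrains cholesterol synthesis, averaged 9.55 ± 0.65, with 9.10 and 8.43 on replicates 2 and 6 and 9.84 to 10.08 on the others. Of its 4 probes, 3 were above background on all 6 arrays. Apart from the brightest, these had raw signals of 863 and 722 on replicate 2. Replicates 1, 3, 4 and 5 read 692 to 940 and 607 to 848 by them, so replicate 2 was not low by those probes. Replicate 6 was the lowest array by both, at 516 and 520. Raw signals are not scaled between arrays, and replicate 6 had the lowest median raw signal of the untreated arrays (130.3). It also had the lowest raw signal of Csf1r (1327), where its log2 level equalled the median (10.71). Lying lowest by a raw signal thus does not by itself place a gene low on replicate 6. Scd1 was on 0 of 15 arrays, and the cholesterol exporter gene Abca1 on 0 untreated and 1 treated array.

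Genes of uptake and recognition were mixed. Of 22 phagocytic and scavenger receptor genes and their bridging ligands, 8 (36.4%) passed on all 6 arrays, near the 40.5% of all genes. The bridging ligand genes Mfge8 (14.73, 14.80 and 14.86, mean 14.79 ± 0.05) and Gas6 (12.15, 12.33 and 12.39, mean 12.31 ± 0.08) were among the bright ones. The GAS6 receptor gene Mertk was above background at percentile 69.5 (7.89 ± 0.17), while its relatives Axl and Tyro3 were on 0 of 15. Of 12 Toll-like receptor genes, 6 (50.0%) passed on all 6 arrays, against 40.5% of all genes. They were Tlr2 (10.72 ± 0.18), Tlr13 (10.79 ± 0.12), Tlr4, Tlr7 (9.79 ± 0.09), Tlr1 (8.08 ± 0.16) and Tlr6 (7.48 ± 0.15). Tlr5 passed on 3 of 6, and Tlr3, Tlr8, Tlr9, Tlr11 and Tlr12 on 0 of 15.

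Without a stimulus, most inflammatory cytokine genes were not above background. Of 27, 7 (25.9%) passed on all 6 arrays, 3 on some and 17 on none. Among all genes, 40.5% were above background on all 6 and 54.8% on none, so an undetected majority is not particular to this list. Of the 17, 7 were above background on at least 3 treated arrays, against 1.4% of all genes undetected at baseline. Ccl3 had log2 levels of 11.30, 11.45 and 11.67 (11.46 ± 0.14) and Ccl4, a chemokine gene like Ccl3, 10.91, 10.96 and 11.22 (11.01 ± 0.12). Ccl9 averaged 10.13 ± 0.15. Tnf, the central inflammatory cytokine, had 8.54, 8.63 and 8.84 (8.66 ± 0.12, percentile 75.1). These 4 were present on every array.

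Il18 averaged 6.88 ± 0.09 and Ccl5 6.10 ± 0.11. Il1b was above background on 2 of 6 arrays, Il23a on 4 and Il1rn on 5. Il1a and Ccl12 were on 0 untreated and 3 treated arrays, and Il6, Il10 and Il12a on 0 of 15. Of 15 activation state genes, 7 (46.7%) passed, against 40.5% of all genes. Among them were Mrc1, the acute-phase gene Saa3 (10.31 ± 0.18), the lectin gene Mgl2 (9.18 ± 0.07) and the feedback inhibitor gene Socs3 (8.63 ± 0.12). Nos2 and Arg1, the 2 arginine-consuming enzymes by which activated macrophages are often sorted into types, were on 0 untreated and 3 treated arrays each.

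Complement genes were mostly not above background, apart from Cfp. Properdin, its product, stabilises the alternative pathway convertase, and its log2 levels were 11.97, 12.14 and 12.37 (12.15 ± 0.14, percentile 96.7). It was the single gene of 14 above background on all 6, with 12 on none. Of 12 MHC class II and costimulation genes, 4 (33.3%) passed on all 6, against 40.5% of all genes. They were the invariant chain Cd74 (9.03 ± 0.09), Cd40 (8.25 ± 0.15), Cd86 (8.20 ± 0.10) and H2-DMb1 (7.91 ± 0.06). The class II chains H2-Aa, H2-Ab1 and H2-Eb1 were on 0 untreated and 1 treated array each. Of 17 purinergic and adenosine genes, 3 passed, P2rx4 (10.29 ± 0.11), P2ry6 and P2rx7 (6.04 ± 0.06).

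Genes of the cell cycle were bright as a group. Of 31 proliferation genes, 24 (77.4%) were above background on all 6 arrays, with a median percentile of 90.8. The centromere histone gene Cenpa averaged 12.79 ± 0.06, the replication helicase genes Mcm4 12.45 ± 0.07, Mcm5 11.92 ± 0.05 and Mcm6 11.77 ± 0.09, and the G1 cyclin gene Ccnd1 11.88 ± 0.06. Cdkn1a, which encodes the cell cycle inhibitor p21, was also above background by all 3 probes, with raw signals of 2577, 3936 and 4749 and a mean log2 level of 11.86 ± 0.13. The mitotic cyclin genes Ccnb2 and Ccna2, Bub1 and Ube2c were on 0 of 15 arrays, as were the inhibitor genes Cdkn2a and Cdkn1b and the cyclin gene Ccnd2. Arrays of total RNA cannot say what share of the cells was dividing.

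Among 39 Hox and Hox cofactor genes, 6 passed on all 6 arrays and 32 on none. Hoxc6 had log2 levels of 10.40, 10.59 and 10.71 (10.57 ± 0.12) and Hoxa5 8.85, 9.14 and 9.27 (9.10 ± 0.15). The cofactor Meis1 averaged 8.91 ± 0.12, Hoxa7 8.09 ± 0.19, Hoxa13 6.57 ± 0.11 and Hoxb4 6.31 ± 0.17. Hox genes give positional identity in the embryo and are also used by blood progenitors.

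Markers of lymphoid, erythroid and non-hematopoietic cells were mostly undetected. Of 161 genes in 12 lists, 18 (11.2%) were above background on all 6 arrays, 10 on some and 133 on none, with a median percentile of 32. In a bulk RNA sample, few cells of another type and a low level in every cell cannot be told apart, so neither the detected nor the undetected genes count cells. The 4 neural lists had 6 of 55 genes (10.9%) above background on all 6 arrays and 47 on none. The neuronal genes Tubb3, Map2, Rbfox3 and Snap25, the progenitor genes Sox1, Sox2, Pax6 and Nes, the astrocyte genes Gfap and Slc1a3 and the oligodendrocyte genes Mbp, Mog, Olig1 and Olig2 were on 0 of 15 arrays.

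The 6 neural-list genes that passed were the intermediate filament gene Vim (13.77 ± 0.09), the glycolytic enzyme gene Aldoc (11.98 ± 0.08), the glutamate transporter gene Slc1a2 (7.43 ± 0.14), Ina (7.35 ± 0.14), Cnp (7.12 ± 0.22) and Elavl4 (6.32 ± 0.13). Vim is also made by macrophages.

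Of 18 pluripotency genes, 3 passed on all 6 arrays. They were the DNA methyltransferase genes Dnmt3l (8.91, 9.02 and 9.14, mean 9.02 ± 0.10) and Dnmt3b (8.73, 8.88 and 9.26, mean 8.93 ± 0.20), and Klf4 (6.64 ± 0.16), which macrophages use as well. Nanog, Zfp42, Sox2, Dppa3, Dppa4 and Dppa5a were on 0 of 15, and Pou5f1, the core factor of embryonic stem cells, on 1 of 6 untreated and 3 of 9 treated arrays. Both probes of Dnmt3l were above background on all 6 arrays, and 1 of 2 for Dnmt3b. The part of residual undifferentiated cells in these values was not tested.

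A handful of other lineage genes were bright. Flt1, a VEGF receptor of endothelial cells and also of monocytes, had 12.22, 12.68 and 12.85 (12.63 ± 0.23, percentile 98.0), with both probes above background. Pecam1, Cdh5, Kdr, Tek and Tie1, which define endothelium, were on 0 of 15 arrays, and Vwf passed at 7.87 ± 0.08. Tfrc, the transferrin receptor that most dividing cells use, averaged 12.38 ± 0.08, while Hba-a1, Gata1 and Alas2 were on 0 of 15. The fetal liver and yolk sac gene Afp had 9.09, 9.18 and 9.50 (9.23 ± 0.16), with Alb, Ttr, Foxa2 and Epcam on 0 of 15.

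Of T and NK cell genes, Cd8b1 averaged 10.95 ± 0.05, but through 1 of 3 probes, and Prf1 8.37 ± 0.36 through 1 of 2. Bcl11b averaged 6.51 ± 0.31 through 1 of 4 probes, at percentile 62.3. Cd3d, Cd3e, Cd3g and Cd8a were on 0 of 15. The B cell list gave Blnk (9.05 ± 0.18), an adaptor that macrophages also use. The fibroblast list gave Acta2 (6.34 ± 0.13, percentile 60.6) through 1 of 6 probes, with Col1a1, Col1a2, Col3a1 and Dcn on 0 of 15. No gene of 11 muscle or 11 mast cell and basophil genes passed on all 6. Xist and the Y-linked genes Kdm5d and Eif2s3y were on 0 of 15 arrays, and the Y-linked gene Uty on 0 untreated and 1 treated array.

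**Figure D3:**
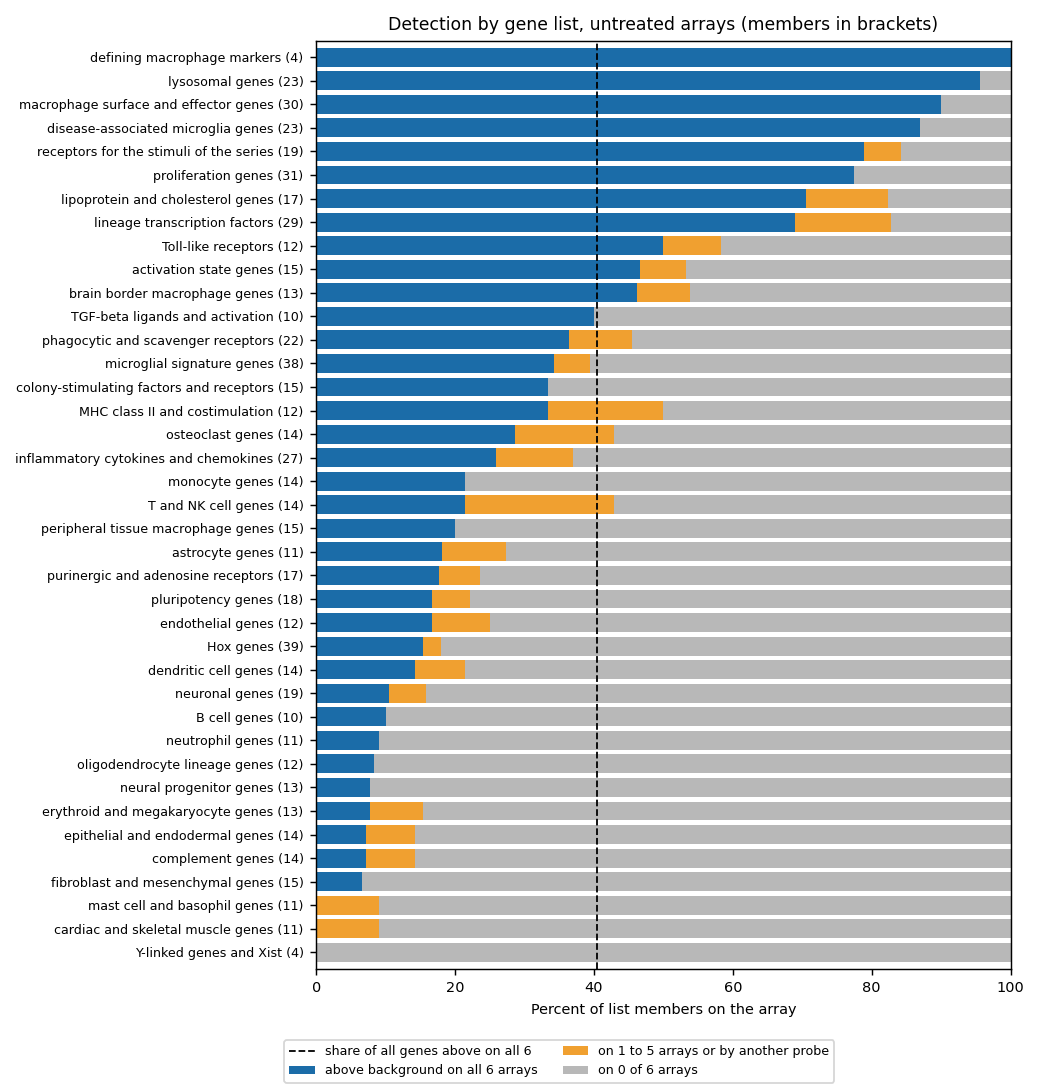
Percent of members on the array (horizontal axis) above background on all 6 untreated arrays (blue), on 1 to 5 arrays or through another probe (orange) and on 0 of 6 (grey) for 39 gene lists, with the number of members in brackets. The dashed line marks the 40.5% of all genes, and the lists of macrophage surface (90.0%), disease-associated (87.0%) and lysosomal genes (95.7%) lie beyond it, while complement (7.1%) and the lists of lymphoid, erythroid and non-hematopoietic cells fall short of it.

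Across the whole array, genes undetected at baseline were rarely detected after a stimulus. Of the 10439 genes on 0 of 6 untreated arrays, 143 (1.4%) were above background on at least 3 of the 9 treated arrays, and 9915 were on 0 of all 15. In 4777 genes above background on all 6 arrays there were several probes, and in 1493 of these every probe passed, so most such genes had at least 1 probe that did not pass on every array.

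The spread between untreated arrays was small for most genes. Over the 7723 genes the median SD was 0.110 on the log2 scale, the 5th and 95th percentiles were 0.050 and 0.255, and the 99th was 0.399. The most even genes were Rheb, a small GTPase (SD 0.013), Foxj3 (0.013), Vkorc1 (0.016), Dcun1d5 (0.017) and Tbcel (0.017). Pearson correlations of log2 levels across genes, which are not independent replicates, were between 0.9899 (replicates 1 and 6) and 0.9963 (replicates 3 and 4). The 6 arrays shared probes and scaling.

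The largest spread lay along a single direction, with 42.8% of the variance on the first principal component, which placed replicate 6 at one end (weight -0.73), with replicate 2 on its side (-0.34), and replicate 1 at the other end (0.47). In 48 of the 50 most variable genes, replicates 2 and 6 were the 2 lowest arrays, as they were in 850 (11.0%) of all 7723 genes. There were 35 genes with an SD over 0.5, and 0 with the other 4 arrays alone, where the median SD was 0.100. Replicates 2 and 6 were set aside because they were low in the most variable genes, so this number was bound to fall. No other pair of arrays was left out for comparison.

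Csnk2a1, the catalytic subunit of casein kinase 2, varied most, with log2 levels of 8.18, 10.14 and 10.51 at the lowest, median and highest array (SD 1.02). It read 8.61 and 8.18 on replicates 2 and 6, and 10.13 to 10.51 on the other 4 (SD 0.21 there). Hnrnpl, a splicing factor gene, read 11.46 and 11.37 on these arrays and 12.77 to 12.81 on the others. The remaining genes of the 10 most variable were Agpat1, Polh, Rbm47, Rbbp4, Bach1, Pi4kb, Krit1 and Hyou1, with SDs of 0.66 to 0.88. They share no list examined here.

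The raw signals of the brightest probes show the same arrays, though they are not scaled between arrays. The brightest probe of Csnk2a1 read 594 and 318 on replicates 2 and 6, against 1342 to 1550 on the others and 990 to 2332 on the treated arrays. Its second probe read 230 and 166 there and 203 to 234 on the others, so replicate 2 was not low by that probe. For Krit1 the first probe read 216 and 169 on replicates 2 and 6 and 275 to 332 on the others, while another of its probes read 275 and 167 against 188 to 245. In 7 of the 10 most variable genes, both replicates lay below all 9 treated arrays by the raw signal of the brightest probe. Replicate 6 had the lowest median raw signal of the untreated arrays (130.3). The part of array brightness in this count was not tested, and the count was not made for other genes. No batch named in the labels pairs replicate 2 with replicate 6, since they were on different bead chips, and the cause was not tested.

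**Figure D4:**
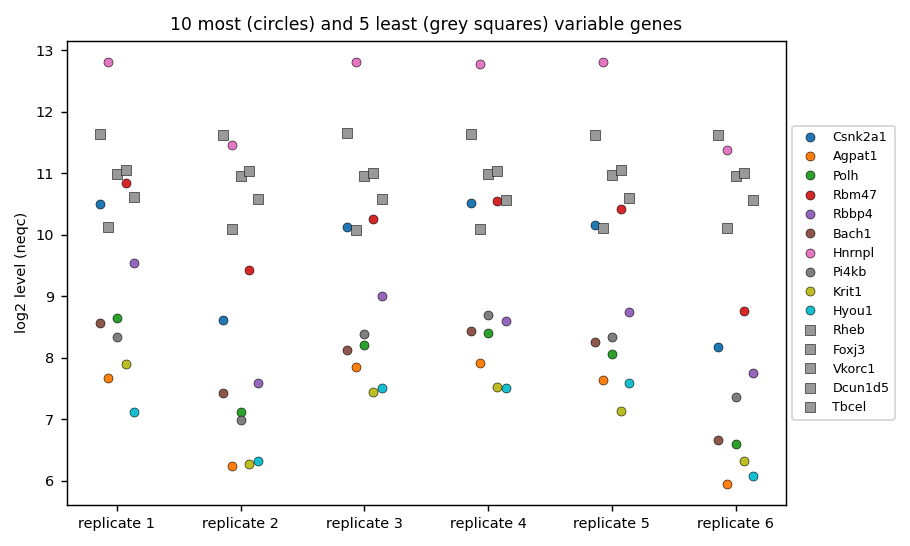
Background-corrected log2 level (vertical axis) on each untreated array (horizontal axis) for the 10 genes with the largest SD (coloured circles) and the 5 with the smallest (grey squares). On replicates 2 and 6 the circles lie lower than on the other 4 arrays, with Csnk2a1 at 8.61 and 8.18 against 10.13 to 10.51, while the squares keep their height.

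The 6 arrays came from 3 bead chips, with replicates 5 and 6 on chip 3, replicates 2, 3 and 4 on chip 2, and replicate 1 on chip 1, so that chip is a known difference among otherwise like arrays. Genes with a detection p under 0.01 on at least 3 of the 6 arrays were tested for a difference between chips (8146 genes, limma, Benjamini-Hochberg). The moderated F test over the 3 chips called 0 genes (0%) at adjusted p under 0.05, with a smallest adjusted p of 0.779 and 481 genes at an unadjusted p under 0.05. Chip 3 minus chip 2 called 0 genes (0%), with a smallest adjusted p of 0.997 and 287 genes at an unadjusted p under 0.05. The median absolute difference between chips 3 and 2 was 0.073 on the log2 scale, below the median standard error of 0.097. The same tests on the 9 treated arrays, with treatment in the model, called 0 and 0 genes (572 and 305 unadjusted).

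In simulated data with the same 3 chips, chip 3 minus chip 2 was tested over 8146 genes. The test recovered 100 of 100 genes changed 2-fold and 89 of 100 changed 1.5-fold, with 15 false calls among 204. The simulated noise was independent between arrays and genes, whereas in the real arrays 42.8% of the variance lay along a single direction. The recovered counts therefore need not hold for the real arrays. Without replicate 2, each test called 1 gene, and with arrays scaled to a common median the F test called 3 genes and chip 3 minus chip 2 called 1.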

How the data were processed

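RNA of 6 untreated arrays was described, and 9 treated arrays served as a check that probes can give signal. The authors' deposited intensity values are mean bead signals on a linear scale, neither background-subtracted nor scaled between arrays. Per the file headers, a detection p-value accompanies each signal. A second deposited table holds log2 values by the authors. Partek is named in the submitters' processing notes, with neither version nor role. Compared with the signals, that table equalled quantile-normalized log2 signals with a chip effect removed (median absolute difference 2.9e-06, 99.995% within 0.001), so it served only as an alternative.

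Probe names came from the platform annotation (10378 probes were unnamed and 18 had several genes). Of the named probes, 34807 matched RefSeq by gene identifier and 0 symbols needed updating. The brightest probe, by mean raw signal, stood for a gene. Levels of the 6 untreated arrays were corrected with neqc (offset 16, negative controls inferred from the detection p), quantile-normalized and put on the log2 scale (R 4.3.3, limma 3.58.1). The chip test used lmFit and eBayes, and was tested on simulated data. Percentiles use raw signals. For arrays, their number limits the precision.

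Members and 39 lists (655 genes, 602 on the array) were chosen with earlier results of these data known. The genes named were the 4 markers, the 20 brightest, up to 6 detected and 8 undetected members of each list, and the 10 most and 5 least variable. List members above background on 1 to 5 arrays could be named with that count. Predicted gene models were skipped, and genes outside this rule are marked where they appear. The ribosomal and mitochondrial groups were also added then. Alternatives covered the detection threshold, the choice of probe, background correction, scaling, the authors' table and leaving out arrays.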

Additional observations from a re-analysis of the deposited data

Results flagged for a closer look

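Among 162 quantities examined (the levels of 160 named genes, the median signal and the number of probes above background), 14 had 1 array whose gap to its nearest neighbour took up most of the range of the 6. A gap this wide arises by chance in about 1 of 20 groups. Of the 14, 7 were on replicate 1, the only untreated array of chip 1, so array and chip cannot be told apart there. On replicate 1, Apoe (12.79 against 13.11 to 13.22 on the others), Tyrobp (12.17 against 12.43 to 12.59), Gas6 (12.15 against 12.32 to 12.39), Plin2 (10.95 against 11.25 to 11.40) and Tgfb1 (9.64 against at least 9.89) were low. On the same array Cnp (7.53 against 6.91 to 7.13) and Csf1 (8.83 against 8.53 to 8.60) were high. On replicate 2, Bhlhe40 was high (12.49 against 12.23 to 12.29) and Elavl4 low (6.07 against 6.30 to 6.42). On replicate 3, Sirpa (14.77 against 14.37 to 14.50) and Mertk (8.21 against 7.76 to 7.92) were high and Ccl5 low (5.87 against 6.10 to 6.17). On replicate 4, Atp5g3 was high (15 against 14.87 to 14.90) and Fcer1g low (14.11 against 14.18 to 14.21). All values are log2 levels.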

How the results depend on the processing

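The number of genes above background on all 6 arrays lay between 7157 (detection p under 0.001) and 8280 (under 0.05), was 7726 to 7790 with any 1 array left out, and moved to 4444 from 7723 where the dimmest probe stood for a gene. The number on 0 of 6 ran from 8747 to 13726 over the alternatives and from 10459 to 10549 with 1 array left out. The percentile, summarised after seeing the data as the median over the 4 markers, was 93.2; it was 85.1 with the dimmest probe, 83.3 among detected genes alone, where Aif1 was at 13.4, and 93.2 to 93.3 with 1 array left out. The median SD was 0.110 and moved to 0.218 with arrays scaled to a common median, and it was 0.103 to 0.111 with 1 array left out. The tests between chips called 3 genes (F) and 1 gene (chip 3 minus chip 2) with that scaling, and 0 to 1 in each test with 1 array left out; the cause was not tested. All other alternatives called 0. No paired analysis was possible because the values describe 1 group. Signal over background limits genes near percentile 58, where detection turns on few units of signal.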
